A study of Mus musculus with 12 samples.

Results

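CD4 T cells of the mouse mammary gland were picked from 12 single-cell RNA sequencing libraries by the transcripts they carried. A droplet barcode was kept as a cell when it held at least 500 genes, at least 1000 UMIs (unique molecular identifiers, 1 for each captured transcript) and at most 5% mitochondrial UMIs. A kept cell was taken as a CD4 T cell when it held at least 2 UMIs of the CD3 genes Cd3d, Cd3e and Cd3g together, at least 1 UMI of Cd4, no UMI of Cd8a, Cd8b1, the B cell gene Cd79a or the fibroblast gene Pdgfra, and fewer than 5 UMIs of the macrophage genes C1qa, C1qb and C1qc. This gate held 885 of 46257 kept cells (1.91%), with 22 to 194 cells in a library. Cells with at least 1 Foxp3 UMI (191 of 885) were counted apart. These genes chose the cells, so their presence in them is no result.

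The glands came from 43-week-old C57BL/6J mice, and per the study's methods the lymph nodes were removed before the tissue was dissociated. The Intact group received no 4-vinylcyclohexene diepoxide (VCD), a chemical that destroys ovarian follicles and so models menopause with the ovaries in place. Mice of the other 11 groups received VCD at 160 mg/kg/day for 15 days. Each group was 1 library, and the number of animals in a library was not given in the sources used here, so no pair of groups was tested against each other.

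VCD_Vehicle and VCD_Vehicle_NormEnv received sesame oil in place of hormones, and the submitters describe the latter as open to flame retardants from plastic cages. VCD_E2 received 17β-estradiol (E2, 1 µg per animal per day) in the final 1 week, VCD_E2_P4 received E2 with progesterone (P4, 1 mg per animal per day), and VCD_E2_ICI received E2 with a single 5 mg dose of the estrogen receptor degrader ICI. VCD_Low_PBDE, VCD_Low_E2 and VCD_Low_E2_P4 ate food with a low dose of polybrominated diphenyl ethers (PBDEs, flame retardants) for 20 weeks, starting 100 days after VCD onset, at 0.05, 0.0028 and 0.0063 mg/kg/day of PBDE-47, PBDE-100 and PBDE-153. VCD_High_PBDE, VCD_High_PBDE_E2 and VCD_High_PBDE_E2_P4 ate 1, 0.056 and 0.126 mg/kg/day of the same compounds for 1 week. The other groups ate matched food with DMSO. Dose and duration of PBDE cannot be told apart. Of these groups, 9 libraries form a full layout of hormone (none, E2, E2 with P4) by PBDE (none, low, high), and all tests of treatment used these 9. Intact, VCD_Vehicle, VCD_E2, VCD_E2_P4 and VCD_Low_PBDE share a code in the deposited file names, and all other groups share another. The labels do not explain the code. A difference between libraries of unlike code cannot be told apart from one that goes with the code.

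CD4 T cells recognize peptides on MHC class II molecules and direct other immune cells through surface ligands such as CD40L and through secreted cytokines. Their main branches are known by their lineage factors or cytokines: T-bet (Tbx21) with interferon gamma for type 1 helper cells, GATA3 with IL-5 and IL-13 for type 2 helper cells, IL-17 for type 17 cells, and FOXP3 for regulatory T cells, which restrain immune responses. Regulatory T cells of non-lymphoid tissues, adipose tissue among them, are known to carry ST2 (Il1rl1), KLRG1 and amphiregulin (Areg), a growth factor linked to tissue repair.

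CD4 T cells held a median of 6271 UMIs and 1948 genes, against 15792 UMIs over all kept cells, and the median of a library lay between 5118 and 9808 UMIs. Their total was 228821 to 1799332 UMIs in a library. Only 9 of 885 shared a barcode with a kept cell of another library, and 0 shared one with a CD4 T cell of another library.

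The cells carried the T cell program beyond the genes of the gate. Lck, the kinase bound to the CD4 tail, was detected in 79.3% of them against 3.12% of B cells, 1.87% of C1q macrophages and 0.756% of fibroblasts. Cd28, the main costimulatory receptor, was detected in 89.8%, Cd5 in 64.5% and the IL-7 receptor gene Il7r in 62.1%. The gate rested on few Cd4 transcripts: the CD3 genes together had a median of 11 UMIs, while Cd4 had a median of 1 UMI, and 489 of 885 cells had exactly 1. Cd4 lies on chromosome 6 at 124864692-124888221 (minus strand, GRCm38) and Foxp3 on chromosome X at 7573644-7595245 (plus strand).

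At the edges of the gate, Cd4 was the threshold with the most cells beside it. Of cells that met every other condition, 901 had no Cd4 UMI, and they had 5181 UMIs in the median against 5493 in the 489 cells with 1 Cd4 UMI. Just inside the CD3 threshold, 9 cells had 2 CD3 UMIs, and just outside, 9 had 1. Just outside the other limits, 33 cells had 1 Cd8a or Cd8b1 UMI, 6 had 1 Cd79a UMI, 59 had 1 Pdgfra UMI and 4 had 5 to 8 C1q UMIs, while 42 members had 1 to 4 C1q UMIs.

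A distinct group of members carried the transcripts of antigen-presenting cells, against the label of a T cell. With H2-Aa, H2-Ab1, H2-Eb1 and Cd74 (the MHC class II chains and their invariant chain) summed, 152 of 885 cells (17.2%) held at least 20 UMIs per 10000, with a median of 329. These MHC class II-high members had a median of 23221 UMIs, against 5517 in the 733 others, and the same median of 11 CD3 UMIs. Lyz2, the lysozyme of macrophages and monocytes, was detected in 96.1% of them and in 9.55% of the others. Tyrobp, a signalling adaptor of myeloid and NK cells, was found in 94.7% against 8.46%, and the dendritic cell lectin Cd209a in 44.1% against 0.546%. C1qa was found in 3.29% of them. The gate limited C1q UMIs, and its part in this share was not tested. Among cells that met every other condition, this limit left out 35, of which 94.3% were MHC class II-high.

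The MHC class II-high share was 8.06% of members in VCD_E2_ICI, 10.3% in VCD_Low_E2, 30.2% in VCD_High_PBDE and 40.9% in VCD_High_PBDE_E2_P4, and 14.3% to 23.5% in the other 8 libraries. A doublet score marked 0 of 152 MHC class II-high members and 4 of 885 members. The 0 allows a marked share of up to 1.97% and sets no limit on doublets. How well the score finds pairs of a T cell and an antigen-presenting cell was not tested. By the same score 4.75% of all kept cells were marked. Each result below is therefore given for all members of the gate, and some results are also given without these cells, except that helper gene shares by library are given only without them. Single shares by library moved by more than 1.5 times in 3 cases: in VCD_High_PBDE_E2_P4 the share of kept cells went from 1.10% to 0.651% and that of leukocytes (Ptprc-positive cells) from 5.10% to 3.06%, and in VCD_Vehicle the Foxp3-positive share, with cells thinned to 2000 UMIs, from 3.12% to 1.92%.

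**Figure D1:**
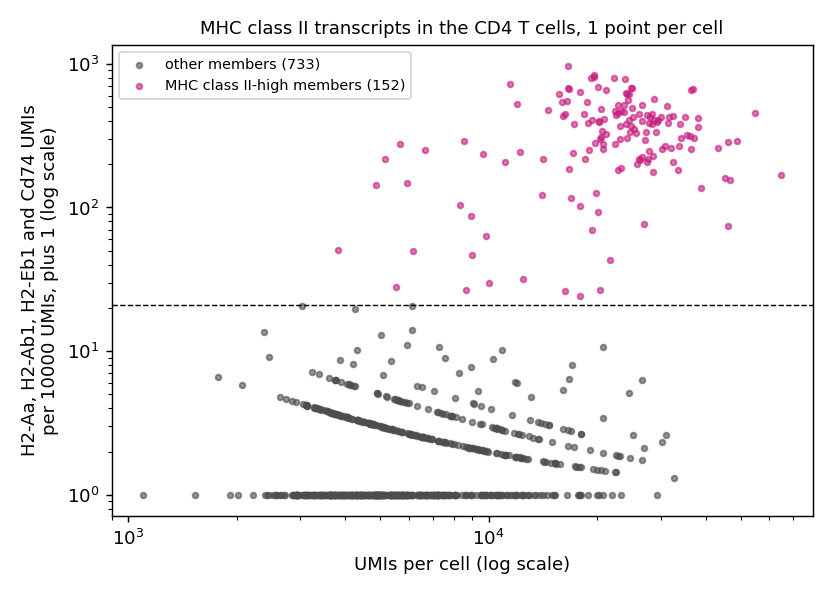
Each point is 1 CD4 T cell, with its UMIs on the x axis and its UMIs of H2-Aa, H2-Ab1, H2-Eb1 and Cd74 per 10000 UMIs plus 1 on the y axis, both on log scales, and the dashed line at 20 per 10000. The 152 MHC class II-high cells form a cloud above the line with a median of 23221 UMIs, apart from the 733 others with a median of 5517.

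The first question was whether the number of CD4 T cells differed with hormone. Their share of kept cells was 1.45% in Intact, 1.70% in VCD_Vehicle, 1.99% in VCD_E2, 2.33% in VCD_E2_P4 and 2.19% in VCD_E2_ICI. With low PBDE the share was 3.15% without hormone, 4.53% with E2 and 0.793% with E2 and P4, and with high PBDE it was 1.42%, 1.33% and 1.10%. The low PBDE libraries thus held both the highest share and, except for the 0.632% of VCD_Vehicle_NormEnv, the lowest. The 2 vehicle libraries, of unlike file-name code, did not overlap in their exact 95% binomial intervals (1.32% to 2.16% and 0.401% to 0.947%). Over the layout the mean was 2.01% ± 1.36 (SD, n = 6) with E2, P4 or not, and 2.09% ± 0.93 (SD, n = 3) without hormone (difference -0.076 percentage points, exact permutation test within PBDE level, two-sided, p = 0.926, smallest possible p 0.037). This difference was above 0 without VCD_Low_PBDE (0.455), VCD_Low_E2_P4 (0.168), VCD_High_PBDE_E2 (0.0611) or VCD_High_PBDE_E2_P4 (0.106), and near 0 without MHC class II-high cells (0.00041).

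Among Ptprc-positive cells (at least 1 UMI of Ptprc, the gene of the leukocyte antigen CD45), CD4 T cells were a smaller share in the E2 libraries, without passing the test. The share was 10.8%, 16.6% and 11.0% without hormone at no, low and high PBDE, 8.31%, 15.1% and 8.15% with E2, and 8.08%, 4.00% and 5.10% with E2 and P4. It was 9.06% in Intact, 9.12% in VCD_E2_ICI and 4.24% in VCD_Vehicle_NormEnv. At no PBDE the number of Ptprc-positive cells was higher with E2 (604 of 3820 kept cells in VCD_Vehicle, 830 of 3669 in VCD_E2 and 1226 of 4373 in VCD_E2_P4), while CD4 T cells were not a smaller share of kept cells there. At low PBDE Ptprc-positive cells were 907 of 4951, 1262 of 4278 and 1375 of 7570 in the same order, and CD4 T cells 3.15%, 4.53% and 0.793% of kept cells. At high PBDE these were 391 of 3038, 417 of 2636 and 392 of 1996, and 1.42%, 1.33% and 1.10%. The part of these counts in the lower share was not tested. In the share of Ptprc-positive cells, every E2 library lay under the library without hormone of its PBDE level, and every E2 with P4 library under the E2 library. The means were 8.13% ± 3.88 (SD, n = 6) with E2 and 12.8% ± 3.33 (SD, n = 3) without hormone (exact permutation test, two-sided, p = 0.111, 0.556 after Benjamini-Hochberg adjustment over the 5 shares tested). This difference of -4.67 percentage points was -2.75 without VCD_Low_PBDE, -6.07 without VCD_Low_E2 and -2.53 with VCD_Vehicle_NormEnv added. P4 added to E2 gave a mean of 5.73% against 10.5% (lower in 3 of 3 pairs, exact p = 0.25, the smallest 3 pairs allow).

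The ratio of CD4 to CD8 T cells was lower with P4 in every pair. CD8 T cells were gated with the same conditions, at least 1 Cd8a or Cd8b1 UMI and no Cd4 UMI, and numbered 682. CD4 T cells made up 52.4%, 72.9% and 74.1% of the CD4 and CD8 T cells without hormone at no, low and high PBDE. With E2 the shares were 70.9%, 69.0% and 53.8%, and with E2 and P4 they were 36.3%, 47.6% and 50%, lower than with E2 alone in 3 of 3 pairs. The counts behind them were 73, 194 and 35 CD4 and 30, 87 and 30 CD8 T cells with E2, and 102, 60 and 22 CD4 and 179, 66 and 22 CD8 T cells with E2 and P4. At no PBDE CD8 T cells were thus more numerous with P4 and CD4 T cells not fewer. At low and high PBDE both counts were lower with E2 and P4 than with E2, in 7570 against 4278 and 1996 against 2636 kept cells. The mean was 44.6% with E2 and P4 against 64.6% with E2 (difference -19.9 percentage points, exact p = 0.25, the smallest 3 pairs allow). At no PBDE the intervals lay apart (30.7% to 42.2% against 61.1% to 79.4%), at low PBDE too (38.7% to 56.7% against 63.3% to 74.4%), and at high PBDE they overlapped. These intervals cover counting error of single libraries only. Those of VCD_Vehicle and VCD_Vehicle_NormEnv also lay apart, for the share of kept cells. Of CD4 and CD8 T cells, CD4 T cells were 66.7% in Intact, 50% in VCD_Vehicle_NormEnv and 41.3% (33.4% to 49.7%) in VCD_E2_ICI, the last below the interval of VCD_E2. VCD_E2_ICI and VCD_E2 also differ in file-name code, so ICI and code cannot be told apart here. E2 libraries together against libraries without hormone gave 54.6% ± 13.3 (SD, n = 6) and 66.5% ± 12.2 (SD, n = 3), with an exact p of 0.222. This difference of -11.9 percentage points was -18.9 without VCD_Vehicle and -7.75 with VCD_Vehicle_NormEnv added. Low and high PBDE against none gave exact p-values of 0.25 to 0.75 for these 3 shares.

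**Figure D2:**
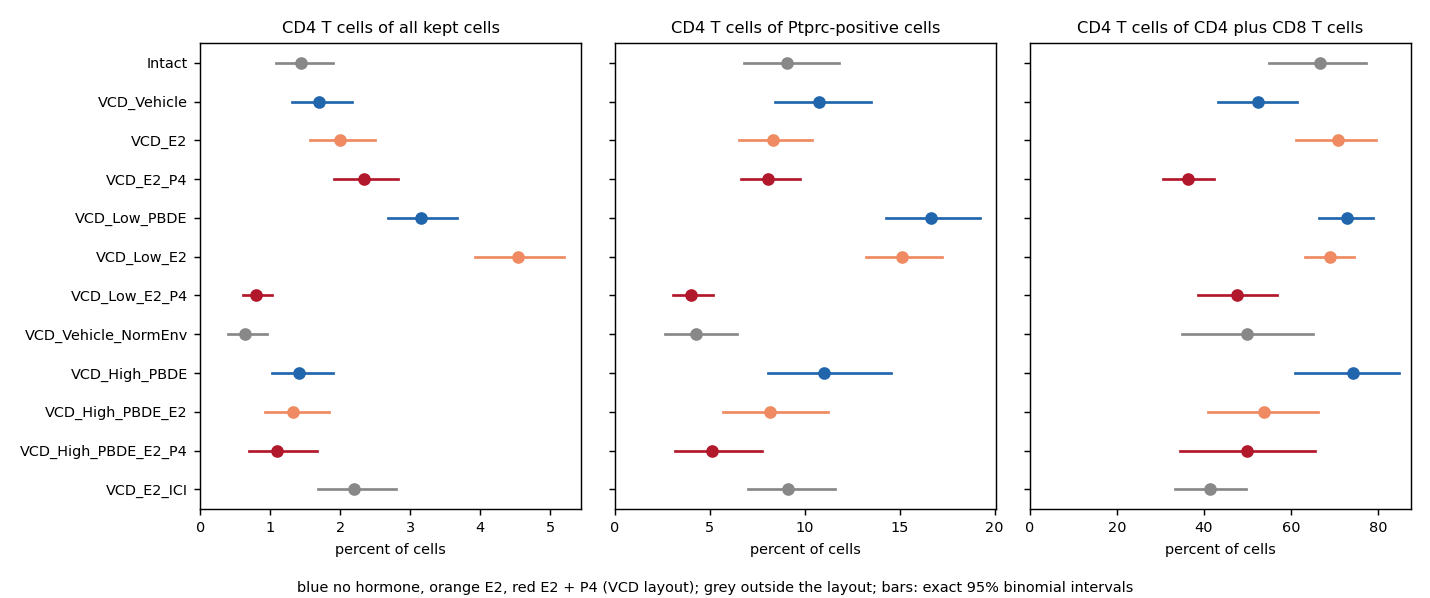
CD4 T cells as a percent of kept cells, of Ptprc-positive cells and of CD4 plus CD8 T cells (x axes) in each of the 12 libraries (y axis), with exact 95% binomial intervals as bars, which cover counting error only. In the right panel the 3 E2 with P4 libraries (36.3%, 47.6% and 50%) lie below the E2 libraries of the same PBDE level (70.9%, 69.0% and 53.8%).

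The second question was which genes set CD4 apart from CD8 T cells of the same libraries. UMIs were summed per gate and library, and 12 libraries were compared as pairs with edgeR's quasi-likelihood test, leaving out the genes of the gates. Of 5145 genes tested, 796 were higher in CD4 T cells and 602 lower at an adjusted p under 0.05 (27.2% called, 15.5% higher and 11.7% lower). Without MHC class II-high cells 1025 of 4033 genes were called (25.4%, with 15.0% higher and 10.4% lower), and 839 were called in both. Levels below are counts per 1000000 UMIs (CPM) of the summed cells, and folds are log2 with their standard error.

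Ligands and receptors of T cell help were among the genes higher in CD4 T cells. Cd40lg, which encodes the CD40 ligand that licenses B cells and dendritic cells, had 98.3, 195 and 307 CPM (lowest, median and highest library) against 4.58, 23.2 and 51.1 in CD8 T cells, with no overlap (log2 fold 3.04 ± 0.14, adjusted p = 6.62e-11). Tnfsf11, the gene of RANKL, a TNF family cytokine with a known part in mammary development, had 55.2, 142 and 342 CPM against 0, 12.1 and 38.0, again without overlap (3.35 ± 0.20, adjusted p = 6.90e-10). The TNF family genes Tnfsf8 (CD30 ligand, 3.37 ± 0.28) and Tnfrsf4 (OX40, 2.76 ± 0.22) and the IL-2 receptor alpha chain gene Il2ra (2.89 ± 0.23) were also among the 10 largest changes once genes averaging under 50 CPM were set aside. Il2ra had 111, 241 and 477 CPM against 2.18, 34.3 and 79.2, with no overlap. Csf2 (3.45 ± 0.44), the gene of the cytokine GM-CSF, and Pxdc1 (2.83 ± 0.24) complete that set with the 3 cytokine or growth factor genes that follow.

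Il5, the eosinophil growth factor of type 2 helper cells, had 9.64, 307 and 752 CPM against 0, 6.10 and 102 (3.75 ± 0.39, adjusted p = 7.81e-07). Areg had 69.1, 722 and 1059 CPM against 13.1, 72.7 and 204 (3.25 ± 0.23, adjusted p = 4.19e-09). Il10, the gene of an anti-inflammatory cytokine, had 8.48, 90.7 and 265 CPM against 0, 1.93 and 33.3 (3.83 ± 0.34, adjusted p = 8.64e-08) and fell below the filter on low counts without MHC class II-high cells. All 3 were higher in CD4 T cells in 12 of 12 libraries, although their ranges overlapped. VCD_Vehicle had the lowest Il5 and Areg levels and VCD_E2_P4 the lowest Il10 level.

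Of the list of 23 regulatory T cell genes, 15 were tested, of which 14 were higher in CD4 T cells and 0 lower, with a median log2 fold of 1.59 against -0.02 over all genes tested. Foxp3 had 28.9, 65.5 and 140 CPM against 0, 12.1 and 33.3 (2.11 ± 0.21), Ctla4, the gene of an inhibitory receptor, 147, 290 and 628 against 12.2, 99.5 and 183 (1.68 ± 0.18), and Capg 189, 366 and 449 against 32.1, 117 and 168, without overlap. All 4 tested type 2 helper genes of 9 were higher: Gata3 (2.12 ± 0.14), Il5, Il1rl1 (2.28 ± 0.19) and the chemokine receptor gene Ccr4 (2.82 ± 0.21). Of the type 17 list, Rora (1.28 ± 0.10), Tmem176a and Tmem176b were tested and higher. All 13 tested cytotoxic effector genes of 15 were lower. Ccl5, a chemokine gene of effector T cells, had 453, 1318 and 2448 CPM in CD4 and 7411, 12622 and 17579 in CD8 T cells (-3.22 ± 0.20), and Nkg7, a granule protein gene, 126, 267 and 387 against 1202, 1664 and 2074 (-2.67 ± 0.14), neither with overlap. The granzyme genes Gzmk (-3.88 ± 0.28), Gzma (-3.73 ± 0.57) and Gzmb (-3.35 ± 0.52) and the T-box factor gene Eomes (-3.90 ± 0.32) were among the 10 largest changes, as were the NK receptor genes Klrc1 (-3.41) and Klre1. Of the type 1 helper list, 5 of 8 tested genes were lower, Tbx21 (-0.88 ± 0.23) and Cxcr3 (-0.56 ± 0.14) among them, and Cxcr3 did not pass without MHC class II-high cells (adjusted p = 0.377).

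Genes linked to activation were also higher in CD4 T cells. Both gates came from the same enzyme-digested glands, and the part of dissociation in these levels was not tested. All 10 NF-kappaB genes passed (median log2 fold 1.11), with Nfkbia, the inhibitor that NF-kappaB induces, at 829, 1577 and 2210 CPM against 324, 588 and 939. Of the immediate early and heat shock list, 10 of 14 were higher, and of the activated and memory list 11 of 15, such as Cd44 (1.03 ± 0.10), Maf (1.05 ± 0.10), S100a4 and Vim. Klf2, a factor of quiescent circulating T cells, was lower (-0.71 ± 0.12), as were the adhesion genes Selplg (-0.75 ± 0.07) and Itgal, while the gut-homing integrin gene Itgb7 was higher (0.89 ± 0.09). In the cell cycle list 3 of 8 tested were lower, Hmgb2, Tyms and Cdk1. The gates were of like depth, 6271 UMIs in the median against 5857.

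Markers of other cells moved with this comparison: 3 of 5 tested macrophage genes of 9 (Lyz2, Cd68 and Csf1r) were higher in CD4 T cells. The summed macrophage list ranged from 763 to 4545 CPM in CD4 and from 56.6 to 2403 CPM in CD8 T cells, with 17.2% and 7.77% of cells MHC class II-high. The medians over libraries were 2540 and 1057.5 CPM. Without those cells, 0 of 2 tested macrophage genes passed, but the summed list was still higher in CD4 T cells, with a median of 657 CPM (27.6 to 2970) against 79.03 CPM (20.5 to 1402), and its part in the comparison was not tested. The regulatory (13 of 13), NF-kappaB (10 of 10) and cytotoxic (13 of 13) counts then held in the same directions.

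**Figure D3:**
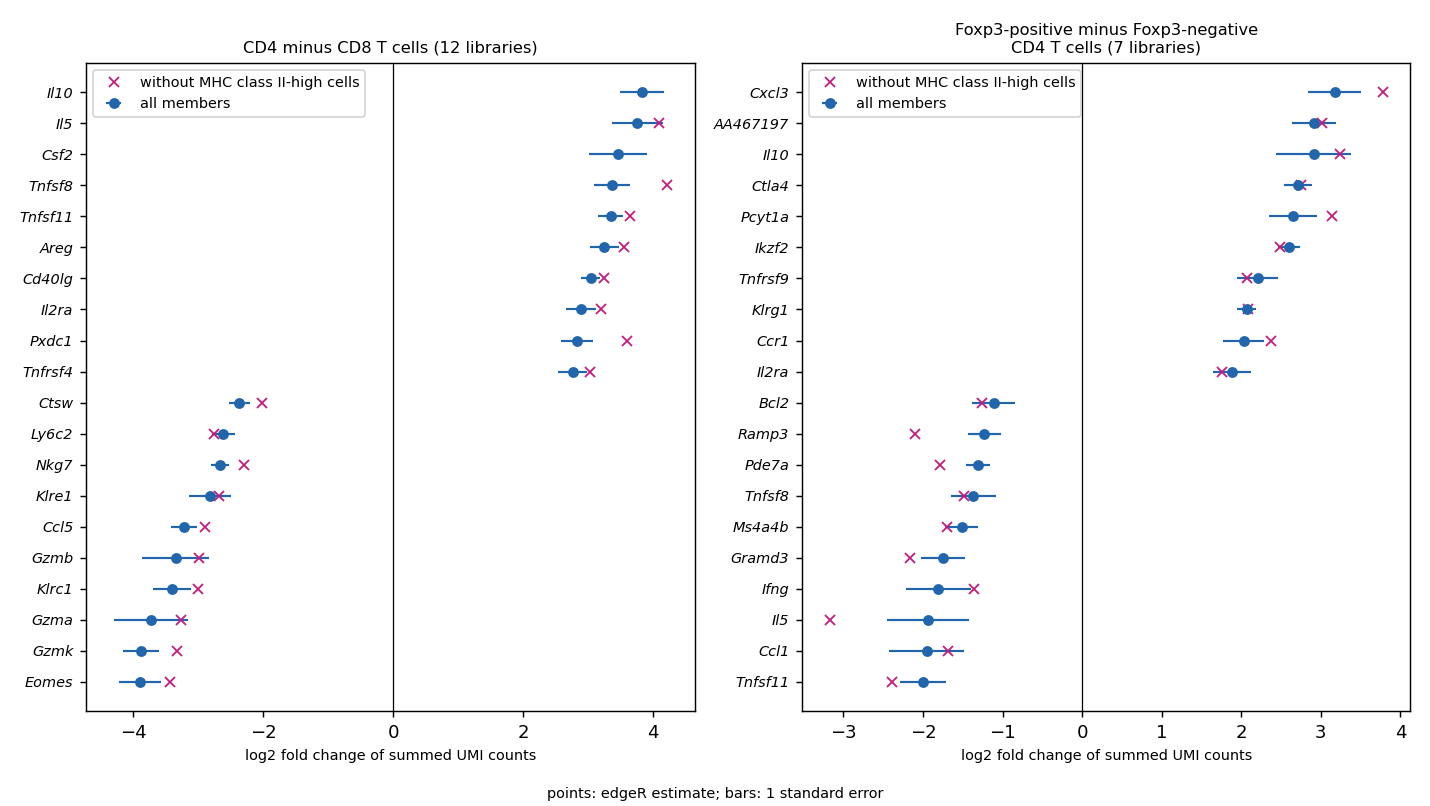
The 10 genes with the largest change in each direction between CD4 and CD8 T cells of 12 libraries (left) and between Foxp3-positive and Foxp3-negative CD4 T cells of 7 libraries (right), as log2 fold change (x axis) with 1 standard error as bars, and crosses for the fit without MHC class II-high cells where the gene was tested there. The crosses of the right panel leave out VCD_E2_P4 and VCD_Low_E2_P4 too. Every cross lies on the same side of 0 as its point, and Il10 and Csf2 have no cross in the left panel.

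Foxp3-positive cells were 191 of 885 (21.6%). Foxp3 UMIs were rare in cells of other types, with a UMI in 3.97% of CD8 T cells without MHC class II-high cells (median 5450 UMIs), 0.625% of B cells, 0.312% of C1q macrophages and 0.141% of fibroblasts (medians of 15652, 11533 and 17100 UMIs). CD3-positive cells with neither Cd4 nor Cd8 UMIs held one in 17.9%. Foxp3-positive cells had a median of 10273 UMIs and Foxp3-negative cells 5683.5, so shares were compared on cells thinned to 2000 UMIs each. As deposited, the share was 26.0% in Intact, 7.69% in VCD_Vehicle, 45.2% in VCD_E2, 16.7% in VCD_E2_P4 and 12.9% in VCD_E2_ICI, and from 17.1% to 37.2% in the other 7 libraries. Thinned, it was 16.0%, 3.12%, 16.4%, 8.82% and 6.45% in the same order. At low PBDE the thinned share was 6.41% without hormone, 11.9% with E2 and 6.67% with E2 and P4. At high PBDE it was 14.0%, 5.88% and 28.6%, the last from 6 of 21 cells (11.3% to 52.2%).

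The order also turned with the thinning: as deposited, the share was 21.2%, 18.6% and 18.3% at low PBDE and 37.2%, 17.1% and 27.3% at high PBDE, for no hormone, E2, and E2 with P4. The order of the hormone groups was not the same at the 3 PBDE levels. VCD_E2 (8.79% to 26.95%) and VCD_Vehicle (0.381% to 10.8%) overlapped only between 8.79% and 10.8%. The means were 13.1% ± 8.53 (SD, n = 6) with E2 and 7.83% ± 5.55 (SD, n = 3) without hormone (exact permutation test, two-sided, p = 0.370, adjusted 0.617), a difference of 5.22 percentage points that was 3.05 with cells thinned to 1000 UMIs and 1.84 as deposited. The difference turned to -1.56 with at least 2 Cd4 UMIs per cell and to -0.694 among VCD_Low_E2, VCD_Low_E2_P4 and the 3 high PBDE libraries, which share a code in the deposited file names. It was 2.12 without VCD_High_PBDE_E2_P4, 2.87 without VCD_Vehicle and 8.28 without VCD_High_PBDE. P4 added to E2 gave 14.7% against 11.4%, higher in 1 of 3 pairs (exact p = 1.00).

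The next comparison asked which other genes set Foxp3-positive cells apart. In 7 libraries with at least 10 cells on both sides (Intact, VCD_E2, VCD_E2_P4, the 3 low PBDE libraries and VCD_High_PBDE), 124 genes were higher and 75 lower in Foxp3-positive cells of 4270 tested, with Foxp3 and the gate genes left out (edgeR, adjusted p under 0.05, 4.66% called, 2.90% higher and 1.76% lower). Without MHC class II-high cells, VCD_E2_P4 and VCD_Low_E2_P4 held fewer than 10 Foxp3-positive cells and dropped out of the fit. There 240 of 2807 genes were called (8.55%, with 4.88% higher and 3.67% lower), 149 of them in both fits, which thus differ in libraries as well as cells. Over all members, leaving out VCD_Low_E2 took the 199 calls to 131.

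Ikzf2, the gene of the factor Helios, had 421, 573 and 785 CPM (lowest, median and highest library) against 68.9, 93.0 and 137 in Foxp3-negative cells (2.60 ± 0.14, adjusted p = 1.40e-07). Ctla4 had 387, 663 and 1149 CPM against 58.0, 102 and 191 (2.71 ± 0.18), and the lectin receptor gene Klrg1 249, 452 and 606 against 73.7, 118 and 164 (2.07 ± 0.12). None of these 3 ranges overlapped. The costimulatory receptor gene Tnfrsf9 (4-1BB, 2.21 ± 0.26), Il2ra (1.88 ± 0.24), Il10 (2.91 ± 0.47) and the chemokine receptor gene Ccr1 (2.03 ± 0.26) were higher too, and the neutrophil chemokine gene Cxcl3 had the largest fold, at 53.6, 135 and 410 CPM against 3.81, 12.9 and 36.8 (3.17 ± 0.33, adjusted p = 5.66e-05). AA467197 (2.91 ± 0.28) and Pcyt1a (2.65 ± 0.30), of the phosphatidylcholine pathway, complete the 10 largest by the same cut-off.

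Il1rl1 had 367, 725 and 1091 CPM against 161, 232 and 442 (1.67 ± 0.13), higher in 7 of 7 libraries. Areg differed less, with 723, 959 and 2278 CPM against 397, 580 and 793 (0.88 ± 0.18, adjusted p = 0.010), so that cells without a Foxp3 UMI carried it as well. Gata3 was likewise modestly higher (0.57 ± 0.11). In all, 10 of 15 tested genes of the regulatory list of 23 were higher, with a median log2 fold of 1.15 against -0.01 over all genes tested.

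Several cytokine genes were lower in Foxp3-positive cells, unlike Il10. Tnfsf11 had 6.72, 45.0 and 106 CPM in Foxp3-positive and 131, 206 and 304 in Foxp3-negative cells, without overlap (-2.0 ± 0.28, adjusted p = 7.49e-04). Il5 had 0, 42.1 and 416 CPM against 239, 388 and 657 (-1.94 ± 0.51, adjusted p = 0.044), and the chemokine gene Ccl1 0, 3.65 and 102 against 6.06, 125 and 223 (-1.95 ± 0.47). Ifng, the gene of interferon gamma, was lower (-1.81 ± 0.41, adjusted p = 0.018). It did not pass in the fit without MHC class II-high cells, VCD_E2_P4 and VCD_Low_E2_P4 (-1.36, adjusted p = 0.059). Cxcr3, the receptor gene of type 1 cells, was lower as well (-1.61 ± 0.27), and 4 of 8 tested type 1 helper genes were lower and 0 higher.

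Of 15 genes of naive and recirculating T cells, 7 were tested, 2 were lower in Foxp3-positive cells and 0 higher, with a median log2 fold of -0.19 against -0.01 over all genes. S1pr1, which guides exit into blood and lymph, had 11.5, 19.5 and 37.3 CPM against 35.5, 79.3 and 103 (-1.73 ± 0.22), and the factor gene Tcf7 had 0, 15.3 and 47.4 against 41.9, 60.5 and 119 (-1.42 ± 0.32). Bcl2, the survival gene (-1.11 ± 0.27), Ramp3 (-1.23 ± 0.21), Ms4a4b (-1.51 ± 0.21), Pde7a (-1.31 ± 0.15), Gramd3 (-1.74 ± 0.28) and Tnfsf8 (-1.37 ± 0.28) complete the 10 largest. The integrin gene Itgb1 was lower without overlap (126, 162 and 261 against 262, 408 and 447 CPM). Of 9 macrophage genes, 6 were tested and 0 passed in either direction, with the summed list from 1810.5 to 5400.5 CPM in Foxp3-positive and 1682 to 4573 CPM in Foxp3-negative cells. The order of its medians turned without MHC class II-high cells, from 3709 against 2902 CPM to 120 (14.4 to 4059) against 437 (255 to 1818) CPM, and its part in the comparison was not tested.

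By detection in thinned cells, the genes most like Foxp3 were Klrg1 (64.9% of 191 Foxp3-positive and 12.8% of 690 Foxp3-negative cells), Ikzf2 (64.4% and 12.5%), Il1rl1 (72.8% and 24.1%) and Cxcl2, a neutrophil chemokine gene (58.6% and 14.6%). Ctla4, Areg, Il2ra, AA467197, Tnfrsf4 and Ramp1 followed, with differences of 33.7 to 43.9 percentage points.

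Foxp3-negative cells held type 1 and type 2 helper genes, alone or together. Foxp3-negative here means that no Foxp3 UMI was found, and 29.8% of Foxp3-positive cells had exactly 1. How many Foxp3-negative cells were regulatory T cells whose Foxp3 transcripts were not captured was not tested. For this description type 1 genes were Tbx21, Cxcr3 and Ifng, and type 2 genes Gata3, Il1rl1, Il5 and Il13, sets chosen after their values were seen. Among 584 Foxp3-negative cells without MHC class II-high cells, 174 (29.8%) held UMIs of type 1 genes only, 191 (32.7%) of type 2 genes only, 166 (28.4%) of both and 53 (9.08%) of neither, against 191, 230, 215 and 58 of 694 with those cells included. Of 149 Foxp3-positive cells, 0 held type 1 genes only and 108 (72.5%) type 2 genes only (1 and 141 of 191 with MHC class II-high cells included), Gata3 and Il1rl1 being genes of tissue regulatory T cells too. Among the Foxp3-negative cells Gata3 was detected in 59.6%, Cxcr3 in 35.6%, Ifng in 33.9%, Il1rl1 in 32.2%, Tbx21 in 28.4% and Il5 in 21.7%.

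Over all 885 members the type 17 cytokine gene Il17a was detected in 0.226%, the follicular helper receptor gene Cxcr5 in 0.339%, and Il21 and Il22 in 0 cells, which allows a share of cells with a UMI of up to 0.339% and sets no limit on cells expressing these genes. Il4 was found in 1.58% of members, against 21.6% for Il5 and 8.59% for Il13.

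**Figure D4:**
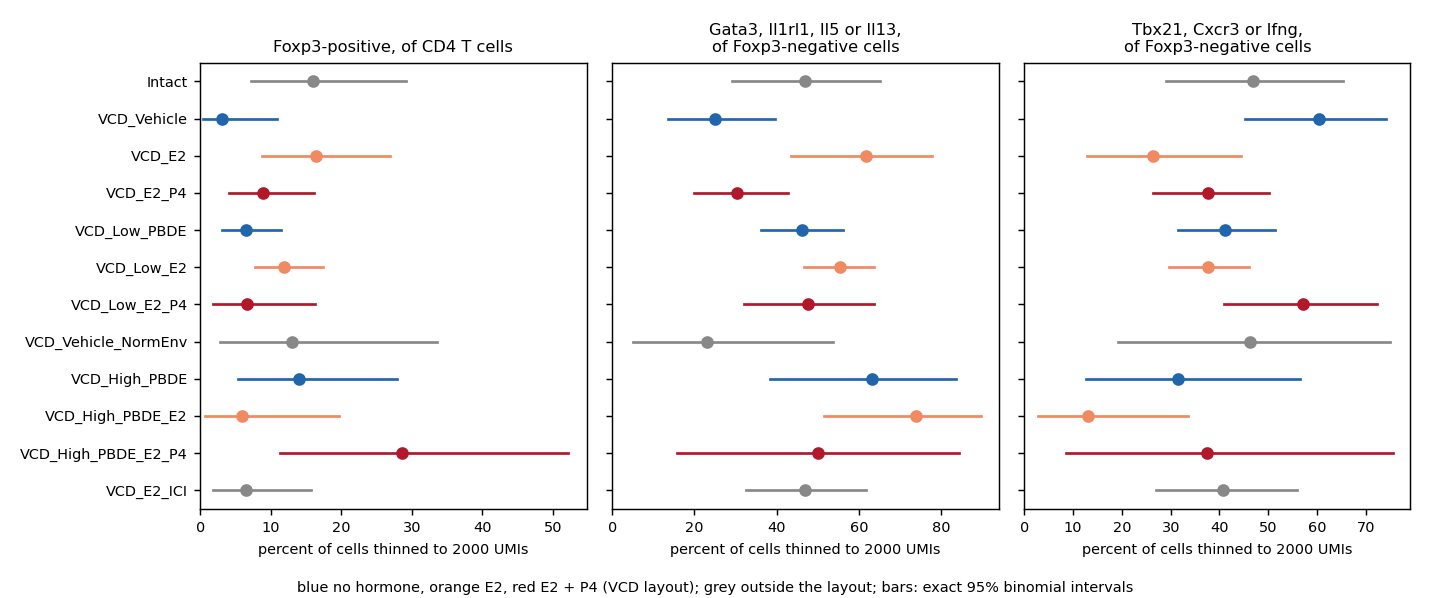
Percent of cells (x axes) in each of the 12 libraries (y axis), all thinned to 2000 UMIs, that held Foxp3 among CD4 T cells (left), type 2 genes among Foxp3-negative cells (middle) and type 1 genes among them (right), the last 2 without MHC class II-high cells, with exact 95% binomial intervals as bars. In the middle panel E2 with P4 (30.4%, 47.6% and 50%) lies below E2 (61.8%, 55.3% and 73.9%) at each PBDE level. Their intervals overlap at low and high PBDE, and the gene sets were chosen after their values were seen.

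Across the layout, thinned to 2000 UMIs, type 2 genes were found in 25%, 46.1% and 63.2% of Foxp3-negative cells (MHC class II-high cells left out) without hormone at no, low and high PBDE, in 61.8%, 55.3% and 73.9% with E2, and in 30.4%, 47.6% and 50% with E2 and P4. Type 1 genes were found in 60.4%, 41.2% and 31.6% without hormone, 26.5%, 37.6% and 13.0% with E2, and 37.7%, 57.1% and 37.5% with E2 and P4. By these sets the E2 library was the highest of the 3 in type 2 genes and the lowest in type 1 genes at each PBDE level. The longer list of 9 type 1 helper genes, summed in CPM over all members, did not follow this order: it was 2856, 3227 and 977 CPM without hormone, 1246, 2289 and 3243 with E2, and 2610, 1964 and 2140 with E2 and P4, so that VCD_High_PBDE_E2 was the highest of the 12 libraries (5535 CPM without MHC class II-high cells, where VCD_High_PBDE had 1437.5 and VCD_High_PBDE_E2_P4 2064). The list of 9 type 2 helper genes was highest with E2 at each PBDE level (378, 1195 and 1430 CPM without hormone, 1661, 2158 and 2402 with E2, and 1043, 1230 and 2021 with E2 and P4). At low and high PBDE the intervals for type 2 genes overlapped with and without E2 (51.6% to 89.8% and 38.4% to 83.7% at high PBDE). There the intervals of E2 also overlapped those of E2 with P4 for type 2 genes, and those of both other groups for type 1 genes. At no PBDE the type 1 intervals of E2 and of E2 with P4 overlapped too. Intact had 46.9% for both sets, VCD_E2_ICI 46.9% for type 2 and 40.8% for type 1 genes, and VCD_Vehicle_NormEnv 23.1% and 46.2%. The sets were chosen with the values known, so no test was run, and the high PBDE shares rest on 8 to 23 cells a library.

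VCD_Vehicle stood apart in these genes. Its Areg level was 69.1 CPM, against 546 to 1059 CPM in the other 11 libraries, and Gata3 was 151 CPM against 365 to 766. Il1rl1 was 119 CPM (234 to 695 elsewhere), Il5 9.64 CPM (60.5 to 752), Ikzf2 61.1 CPM (155 to 408) and Klrg1 46.6 CPM (126 to 393). Its cells were of usual depth (median 5896 UMIs) and MHC class II-high share (18.5%), but it was also the lowest of the 12 in the summed NF-kappaB list (2697 CPM against 3537 to 6150) and in the immediate early and heat shock list (7391 against 8254 to 12758 CPM), whose part in these levels was not tested. Its Foxp3-positive share as deposited was also the lowest of the 12, at 7.69% (5 of 65 cells) against 12.9% to 45.2% in the other 11 libraries. Areg, Gata3, Il1rl1, Ikzf2 and Klrg1 were higher in Foxp3-positive cells and Il5 was lower. The part of the Foxp3-positive share in these levels was not tested. For how many of all genes VCD_Vehicle was the lowest is not given here. Areg was found in 7 of its 65 cells. In VCD_Vehicle_NormEnv, the other vehicle library, Areg was 612 CPM and Gata3 572.5 CPM, within the range of the rest, from 23 cells.

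Ccr7, the gene of a chemokine receptor that brings naive and central memory T cells into lymph nodes, was detected in 12.1% of members and in 14.6% of B cells.

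The third question was whether E2, P4 or PBDE changed gene expression in CD4 T cells. UMIs of receptors for these hormones were few. Esr1, the gene of estrogen receptor alpha, had 2.71 CPM in CD4 T cells, 1.61 in CD8 T cells and 56.4 in fibroblasts, with a UMI in 2.49% of members and 49.6% of the deeper fibroblasts, or 1.02% and 9.96% with cells thinned to 2000 UMIs. Pgr, the progesterone receptor gene, had 0.451 CPM (4 UMIs) against 11.6 in fibroblasts, with a UMI in 0.452% and 8.73%, or 0.114% and 1.59% thinned. Esr2 had a UMI in 0 of 885 members and in 3 of 32662 fibroblasts, which sets no limit on cells expressing it. The glucocorticoid receptor gene Nr3c1 was found in 86.6%. Ahr, whose product senses dioxin-like compounds, was found in 11.1% of members that were not MHC class II-high and 58.6% of those that were. These groups had medians of 5517 and 23221 UMIs, and the part of depth in this difference was not tested.

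In the 9-library layout each combination of hormone and PBDE was 1 library, so hormone effects that differed between PBDE levels served as error. E2 with or without P4 against no hormone gave 0 genes past the test of 6490 in the additive edgeR fit of 9 libraries (0% called, 4 residual degrees of freedom), and 233 at an unadjusted p under 0.05 (3.59%). DESeq2 called 6 of these genes, Il13, Ifi27l2a, Irf7, Plac8 and Ifitm3 higher and Gsn lower, named here after their values were seen. Il13 (1.22 ± 0.19) and Irf7 (1.36 ± 0.20) had the lowest adjusted p in edgeR, 0.187 for both. Il13 had 40.2, 56.8 and 135 CPM without hormone and 56.7, 171 and 247 CPM with E2, in the order no, low and high PBDE, and 79.2, 210 and 268 CPM with E2 and P4. It was higher in each E2 library than in the library without hormone at the same PBDE level over all members. With MHC class II-high cells left out this did not hold at high PBDE, where Il13 had 166 CPM without hormone (40 UMIs in 1 cell), 416 CPM with E2 (81 UMIs in 3 cells) and 0 with E2 and P4. Irf7, a factor of the interferon response, had 49.8, 22.7 and 42.0 CPM without hormone, 81.0, 66.7 and 68.9 with E2 and 105.5, 108 and 123 with E2 and P4. The libraries with and without E2 did not overlap in it, but the gene was picked by its low p, so this is no further support. How many of all genes were without overlap is not given here. Without MHC class II-high cells the log2 fold of Irf7 was 0.82. The 16 tested interferon-induced genes of 20 had a median log2 fold of 0.25, against 0.00 over all genes, and 0.01 without MHC class II-high cells.

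P4 added to E2 also gave 0 of 6490 genes (0% called, 380 at an unadjusted p under 0.05), with 2 called by DESeq2, the collagen gene Col1a1 and Sparc. Without MHC class II-high cells 1 of 4762 genes was called in edgeR (0.021%, lower), the chemokine gene Cxcl2 (-1.87, adjusted p = 0.0064), which did not pass over all members (-1.11 ± 0.29, adjusted p = 0.768). Col1a1 was 31.6 to 62.1 CPM in the E2 libraries and 107 to 293 CPM with E2 and P4 (2.07 ± 0.43, adjusted p = 0.768). The fibroblast list of 6 summed to 715 to 892 CPM with E2 and 1153 to 2107 CPM with E2 and P4, and its part in this difference was not tested. The 8 tested cell cycle genes of 9 had a median log2 fold of 1.25, with 0 past the test: their sum was 412, 1467 and 1389 CPM with E2 and 1746, 2999 and 824 CPM with E2 and P4, so it was higher in 2 of 3 pairs.

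Low PBDE gave 0 of 6490 genes (0% called, 230 at an unadjusted p under 0.05, 0 by DESeq2). High PBDE gave 3 (0.0462% called, 0.0308% higher and 0.0154% lower, 545 at an unadjusted p under 0.05, 15 by DESeq2). Leaving out 1 library gave 2 to 8 genes, with 8 without VCD_E2, 7 without VCD_Low_PBDE or VCD_High_PBDE_E2_P4, 6 without VCD_Low_E2_P4 and 5 without VCD_High_PBDE_E2. AY036118 was lower (-3.48 ± 0.33, adjusted p = 0.0046), with 219, 301 and 335 CPM at no PBDE (no hormone, E2, E2 with P4) and 22.8, 34.4 and 17.0 CPM at high PBDE. It was also 74.3 CPM in VCD_Vehicle_NormEnv and 23.0 CPM in VCD_E2_ICI, which had no PBDE in the food. Gm20186, outside the naming rule, was higher (1.91 ± 0.24, adjusted p = 0.021), with 30.5, 68.9 and 34.9 CPM against 154, 155 and 170, and VCD_Vehicle_NormEnv (253.5 CPM) and VCD_E2_ICI (161 CPM) were within or above the range of high PBDE.

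Il13, on chromosome 11 at 53631324-53634702, was the other gene called at high PBDE (1.94 ± 0.22, adjusted p = 0.010). Its 77, 86 and 63 UMIs in the high PBDE libraries came from 4, 4 and 3 cells, and the leading cell held 40, 78 and 45 of them. Without MHC class II-high cells its fold was 1.34 with an adjusted p of 0.612, and VCD_High_PBDE_E2_P4 then held 0 Il13 UMIs. The libraries differ by a code in the deposited file names that the labels do not explain, shared by Intact, VCD_Vehicle, VCD_E2, VCD_E2_P4 and VCD_Low_PBDE and not by the 3 high PBDE libraries, and with that code as a further term 0 genes were called. With MHC class II-high cells left out, 6 of 4762 genes were called (0.126%, with 0.084% higher and 0.042% lower), 2 of them in both. Red cell genes reached 9989 and 10931 CPM in sum in VCD_High_PBDE and VCD_High_PBDE_E2, against 8 to 66 CPM elsewhere, and the UMIs of Hba-a1 came almost all from 1 cell in each (1419 of 1421 and 1031 of 1031).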

How the data were processed

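The 12 libraries were made with the Chromium v3 kit from dissociated mammary glands, and the authors aligned them to mm10 and counted UMIs with Cell Ranger 3.1.0. The deposited matrices hold raw UMI counts per gene and barcode, 58620 barcodes in all, with library totals of 41737881 to 109224969 UMIs, and carry no cell annotation. The gate described above was applied to these counts, and doublets were scored but not removed in the main analysis. The members, the lists and the threshold on MHC class II genes were chosen with earlier results of these data known.

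Cells are not replicates, so counts were summed per library and population (at least 10 cells on both sides of a comparison) and tested with edgeR 4.0.16 in R 4.3.3 (quasi-likelihood test, TMM normalization, low-count filter, Benjamini-Hochberg adjusted p under 0.05), with library as a block between populations and hormone plus PBDE as terms over the 9-library layout. DESeq2 1.42.0 was an alternative. Standard errors of edgeR folds were computed as the fold over the square root of the F statistic. Shares were compared between libraries by an exact permutation test within PBDE level (27 arrangements, p adjusted over 5 shares), after thinning cells to 2000 UMIs for shares of CD4 T cells that hold a gene. Shares that count CD4 T cells among other cells also depend on detecting Cd4 and were not thinned, with library medians of 11843 to 20446 UMIs per kept cell. The edgeR fits of E2 and of the population pairs were run on simulated counts with known changes. The other steps were not tested in this way. Genes were named by size of change (at most 10 in each direction, mean of at least 50 CPM, gate genes, mitochondrial genes and Gm and Rik models left out, as were genes more than 5 times higher in other cells) and as list members past the threshold. Of 276 list genes 266 were in the files. 1 of the 5 shares, 1 comparison and some genes are not reported here. Intervals are exact 95% binomial and cover counting error only. The p-values measure the spread between libraries, which may be technical. Each combination of hormone and PBDE was 1 library, so p-values for treatment cannot tell that spread from hormone effects that differ between PBDE levels. In the additive fit such departures served as the error. Gene positions come from GENCODE on GRCm38.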

Additional observations from a re-analysis of the deposited data

Results flagged for a closer look

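For CD4 T cells as a share of kept cells, both E2 libraries lay above the library without hormone at no PBDE and both below it at high PBDE, and this difference was not tested. The mean of both E2 libraries minus the library without hormone was 0.459 percentage points at no PBDE and -0.200 at high PBDE. At low PBDE the E2 libraries went opposite ways, by 1.38 points with E2 and -2.36 with E2 and P4. With E2 alone, the share of CD4 plus CD8 T cells also differed in sign between no and high PBDE (18.5 and -20.3 points), as did the Foxp3-positive share (13.3 and -8.07), while with E2 and P4 these were -16.1 and -24.1 points and 5.70 and 14.6 points.

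Foxp3 UMIs were also found outside the gate. Of 901 CD3-positive cells with neither Cd4 nor Cd8 UMIs, 17.9% held Foxp3, against 19.4% of the 489 members with a single Cd4 UMI and 3.97% of CD8 T cells without MHC class II-high cells. How many of these cells were CD4 T cells whose Cd4 transcripts were not captured was not tested.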

How the results depend on the processing

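Over the shares, 74 alternative values kept the direction of E2 minus no hormone and 10 did not. The former include values fixed by construction, since permuting over all 9 libraries leaves every difference as it was, and so does the thinning for the 3 shares other than that of Foxp3. The share of kept cells gave 0.0053 percentage points with a mitochondrial limit of 10%, 0.288 with VCD_Vehicle_NormEnv added, 0.00041 without MHC class II-high cells and 0.524 in the libraries of the second file-name code. The Foxp3-positive share gave -1.56 with at least 2 Cd4 UMIs and -0.694 in the second code. Leaving out 1 library gave -0.580 to 0.455 for the share of kept cells, -6.07 to -2.75 for that of Ptprc-positive cells, -18.9 to -8.05 for that of CD4 plus CD8 T cells and 2.12 to 8.28 for the Foxp3 share. Of the alternative counts of genes, 103 were within 1.5 times the main count and 22 were not. DESeq2 called 6 genes for E2, 2 for P4 and 15 for high PBDE, and no filter on low counts gave 62, 111, 54 and 101 for E2, P4, low and high PBDE and 438 for Foxp3. For E2, Foxp3-negative cells alone gave 4. Without MHC class II-high cells P4 gave 1 and high PBDE 6. High PBDE gave 0 with the file-name code as a term and 1 with no C1q UMI allowed. With at least 2 Cd4 UMIs, CD4 against CD8 gave 740 and Foxp3 63. A mitochondrial limit of 10% gave 390 for Foxp3. Leaving out 1 library gave 2 to 8 for high PBDE, 1184 to 1387 for CD4 against CD8 and 131 to 215 for Foxp3. Of the genes named, 3316 alternative values kept direction and call and 159 lost the call. The causes were not tested, except that fewer cells or libraries entered where some were left out. No paired analysis was possible because the labels give no replicate numbers shared between groups, and the pairs used were populations of 1 library or libraries of 1 PBDE level. The alternatives on MHC class II-high cells and file-name codes were chosen after seeing the data.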
